A study of Mus musculus with 4 samples.

Results

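Growth factor signals reach the inside of a mammary tumor cell largely through the phosphoinositide 3-kinase (PI3K) and RAS pathways, and 7 genes at their core were followed here in 4 mouse mammary tumors: Pik3ca, Pik3r1, Inpp4b, Nf1, Hras, Nras and Akt1. The genes were chosen by symbol from tables of 23746 gene rows each. Of the 7, 6 were listed under these symbols, and Hras under the older symbol Hras1 at the same position. All 4 tumors came from female mice in which Cre, driven by WapCreC in luminal and basal mammary epithelium, removed floxed Brca1 and p53 (Trp53). The 2 triple-mutant tumors, 26043 and 26044 (triple mutants), also carried floxed Rank (WapCre;Rank;Brca1;p53), whereas the 2 double-mutant tumors, 26048 and 26050 (double mutants), did not (WapCre;Brca1;p53). The age of the animals and the grade of each sequenced tumor are not given in the sources used here. By the study's histology, triple mutants formed tumors of intermediate grade and double mutants of intermediate or high grade, so any difference in grade between these groups cannot be told apart from genotype. The question put to these genes was whether tumors growing without Rank differed from those with Rank in the mRNA of PI3K and RAS drivers and suppressors.

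Class I PI3K is a dimer of a catalytic subunit, such as p110-alpha (Pik3ca), and a regulatory subunit, such as p85-alpha (Pik3r1), which stabilizes its partner and restrains it until a receptor is engaged. Its lipid products recruit the kinase Akt1 to the membrane, and the lipid phosphatase Inpp4b removes such products. Hras and Nras are small GTPases that signal when bound to GTP, and neurofibromin (Nf1) switches them off by speeding GTP hydrolysis. Loss of INPP4B and of NF1 has been described in basal-like human breast cancer, and activating changes in PIK3CA and RAS genes drive many carcinomas.

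The values are FPKM, fragments per kilobase of transcript scaled to the mapped fragments of the library, estimated by the authors with Cufflinks, and levels of different genes are compared below on this per-length scale only. Differences between genotypes are triple-mutant minus double-mutant on the log2(FPKM + 1) scale, tested with limma over the 12752 genes that reached 1 FPKM in 2 tumors or more. This scale understates the change of low genes. An exact permutation over tumors reaches no p below 0.333, since each genotype has 2. The sum of FPKM ranged from 690775 to 796031 per tumor, genes at 1 FPKM or more from 12150 to 12681, and the number of reads is unknown. Rank (Tnfrsf11a) was at 2.07 and 0.96 FPKM in the triple-mutant and at 10.6 and 11.9 FPKM in the double mutants. Epithelial markers (Epcam, Cdh1 and 4 keratins) were detected in every tumor, but tumor 26044 had 443 FPKM over these 6 genes against 1926 to 2943 FPKM in the other 3. Basal markers (Krt5, Krt14, Krt17, Trp63, Acta2 and Myh11) summed to 1736 and 1259 FPKM in triple mutants and to 68.1 and 46.6 FPKM in double mutants, with Acta2 alone at 898 FPKM in tumor 26044. Fibroblast markers were lower in triple mutants (205 and 123 FPKM over 7 genes) than in double mutants (899 and 433 FPKM), and leukocyte markers likewise (55.2 and 48.3 against 89.2 and 88.4 FPKM over 12 genes). Of single markers, 5 of 6 basal genes were higher in both triple mutants, and 4 of 7 fibroblast and 4 of 12 leukocyte genes lower. In the other direction, 1 fibroblast and 2 leukocyte genes were higher. Of all genes tested, 21.3% were higher and 22.9% lower in both triple mutants. Adipocyte markers reached 2015 FPKM in tumor 26048 and 9.43 to 261 FPKM elsewhere. In such bulk tissue, fewer cells of a type and less RNA per cell cannot be told apart. The part of these cell types in the levels of Hras, Nf1 and Inpp4b, which also separated the genotypes, was not tested.

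Of the 7 genes, Hras was higher and Nf1 and Inpp4b were lower in both triple mutants than in both double mutants, while Pik3ca, Pik3r1, Nras and Akt1 overlapped between genotypes. Inpp4b did not reach the filter on low values, which left 6 genes with a test. Of these, 2 did not overlap between genotypes, against 44.3% of all genes tested. None of the 6 passed an adjusted p of 0.05 in limma, where 0.0% of all genes did, and 1 (Hras) had an unadjusted p under 0.05, as did 9.82% of all genes tested, 5.91% with the higher value in triple mutants like Hras. The median size of the difference over the 6 was 0.57 log2 units, and 0.38 over all genes tested.

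**Figure D1:**
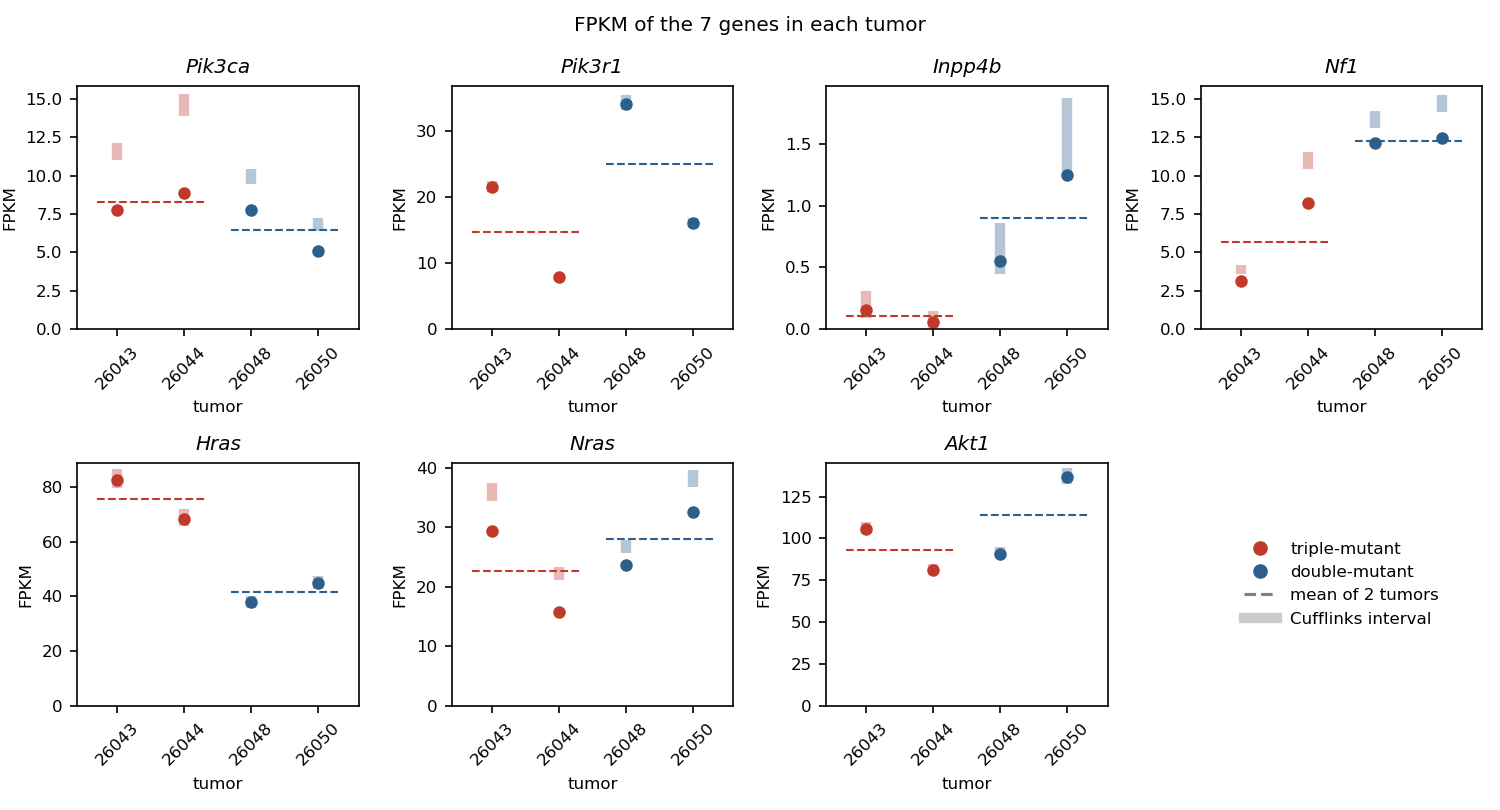
FPKM (vertical axes from 0) of each gene in the 4 tumors, triple-mutant in red and double-mutant in blue. Points are the FPKM, dashed lines the mean of 2 tumors and pale bars the Cufflinks interval. Hras lies higher and Nf1 and Inpp4b lie lower in both triple mutants. The points of Pik3ca, Nf1 and Nras lie below their own bars in all 4 tumors.

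Akt1 was the most abundant of the 7 in every tumor, with 103.5 ± 24.3 FPKM (SD over the 4 tumors), and Hras followed in all 4 with 58.5 ± 20.7 FPKM. Nras (25.3 ± 7.4 FPKM) and Pik3r1 (19.8 ± 11.0 FPKM) came next and did not differ beyond their spread, with Nras above Pik3r1 in 3 of 4 tumors. Nf1 (8.99 ± 4.33 FPKM) and Pik3ca (7.37 ± 1.60 FPKM) were also indistinguishable, each the higher one in 2 tumors. Inpp4b was the lowest in every tumor, at 0.50 ± 0.54 FPKM. The spread across tumors differed between the genes as well. The highest tumor exceeded the lowest by 1.69-fold for Akt1 and 1.74-fold for Pik3ca, by 2.06-fold for Nras and 2.18-fold for Hras, and by 3.94-fold for Nf1, 4.29-fold for Pik3r1 and 21.2-fold for Inpp4b.

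Among the GTPases, Hras lies on chromosome 7 from 141189934 to 141194004 (mm10, minus strand). Triple mutants 26043 and 26044 had 82.6 and 68.5 FPKM, and double mutants 26048 and 26050 had 37.9 and 45.1 FPKM. Both triple mutants thus lay above both double mutants, and the tumors of a genotype differed by 1.21-fold or less. The means were 75.5 ± 9.96 FPKM in triple-mutant and 41.5 ± 5.0 FPKM in double mutants (SD, n = 2), a 1.82-fold ratio. On the log2 scale Hras differed by 0.85 (standard error 0.28, 95% interval 0.12 to 1.58, adjusted p = 0.48 from limma, by Benjamini-Hochberg over all genes tested). Its unadjusted p from limma was 0.031, but 0.058 with FPKM rescaled to the same sum in every tumor (TPM). The Cufflinks intervals of the genotypes did not overlap, with a lowest bound of 65.6 FPKM in triple-mutant and a highest bound of 47.6 FPKM in double mutants.

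Hras starts back to back with Lrrc56, a gene of a leucine-rich repeat protein on the plus strand, and the sequence between both starts is shown because both genes had their higher values in triple mutants. In RefSeq models on GRCm38.p6 (the mm10 assembly) these starts enclose 91 bases at chr7:141194020-141194110, given here on the strand of Hras with a CCAAT motif in capitals.
Hras to Lrrc56: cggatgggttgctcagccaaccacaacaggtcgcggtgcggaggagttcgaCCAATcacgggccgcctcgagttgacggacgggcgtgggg
The stretch has a GC content of 67.0%. CCAAT (or ATTGG, its reverse complement) was found in 37.4% of all 32851 RefSeq promoter windows, which run from 250 bases before to 50 after a start, and in those of 3 of the 7 genes (Hras, Pik3r1 and Inpp4b). The GC box GGGCGG (or CCGCCC) was in 35.7% of all windows and in at least 1 window of each of the 7 genes. Lrrc56 (chromosome 7 from 141194130 to 141210055) had 3.91 and 7.59 FPKM in triple-mutant and 2.44 and 1.32 FPKM in double mutants. Its difference of 1.20 log2 units (standard error 0.44) had an unadjusted p of 0.046 and an adjusted p of 0.51 from limma. The 44 tested genes within 1 Mb of Hras had a median difference of 0.13, 12 of them without overlap and higher in triple mutants and 5 lower, against 21.3% and 22.9% of all genes tested. Their median, relative to the mean of the 4 tumors, was 0.31 in tumor 26043 but -0.17 in tumor 26044, where Hras itself was at 0.29. Among these neighbors the dopamine receptor gene Drd4 (4.21 and 7.31 against 0.26 and 0.52 FPKM) and the secretin gene Sct (2.99 and 7.60 against 0.59 and 0.19 FPKM) were higher in both triple mutants. Cox8b, a cytochrome oxidase subunit of muscle and brown fat, was at 367 FPKM in tumor 26048 and at 0 to 5.03 FPKM in the others.

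Nras lies on chromosome 3 from 103058285 to 103067914 (plus strand) and did not follow Hras. It stood at 29.4 FPKM in 26043, 15.8 in 26044, 23.6 in 26048 and 32.5 in 26050. The triple-mutant values bracketed tumor 26048, so the genotypes overlapped. The difference was -0.35 log2 units (standard error 0.41, 95% interval -1.44 to 0.75, adjusted p = 0.80 from limma), and it turned to 0.083 without tumor 26044. The 20 tested genes within 1 Mb of Nras had a median difference of 0.11. Casq2, a calcium store protein gene, and Dennd2c, a Rab exchange factor gene, were higher in both triple mutants, with differences of 1.70 and 0.97 log2 units (adjusted p = 0.32 and 0.48 from limma).

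Because FPKM corrects for length, Hras and Nras can be set against each other within a tumor, which no scaling between tumors can alter. Hras made 73.7% and 81.3% of their sum in triple mutants 26043 and 26044, and 61.7% and 58.1% in double mutants 26048 and 26050. Every triple-mutant share lay above every double-mutant share. The means were 77.5% ± 5.3 and 59.9% ± 2.5 (SD, n = 2 each), a difference of 17.6 percentage points with p = 0.333 in a two-sided exact permutation test, the smallest the design allows. Leaving out each tumor in turn gave 13.9 to 21.4 percentage points.

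**Figure D2:**
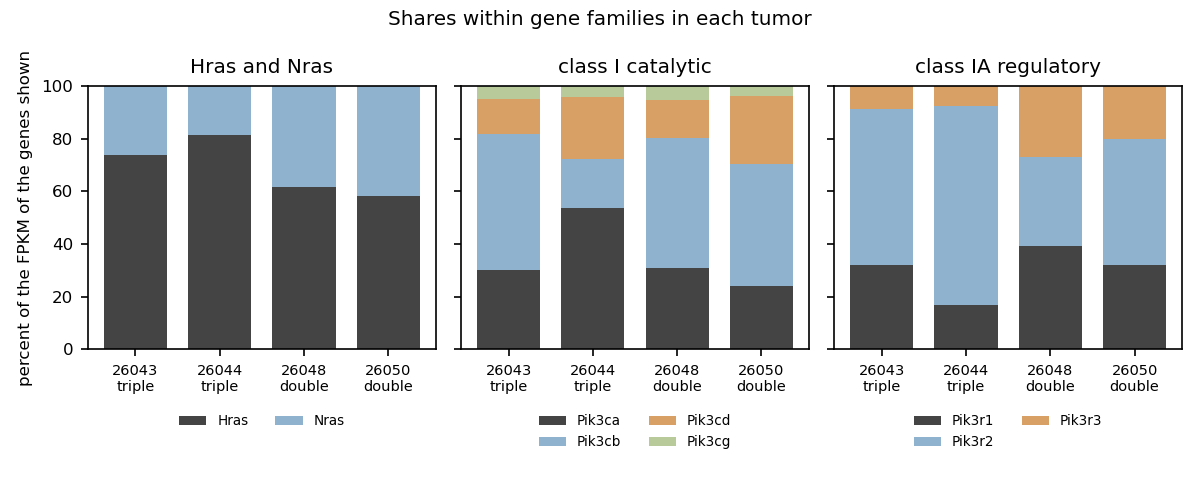
Share of each gene (percent, vertical axis) in the summed FPKM of its family in each tumor, for Hras with Nras, the class I catalytic subunits and the class IA regulatory subunits. Hras takes 73.7% and 81.3% in triple-mutant and 61.7% and 58.1% in double mutants, and tumor 26044 stands out by its Pik3ca and Pik3r2 shares.

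Nf1, the GTPase-activating protein that inactivates both RAS proteins, lies on chromosome 11 from 79339892 to 79581609 (plus strand), the chromosome that also carries Trp53 and Brca1. Tumor 26043 had 3.16 FPKM and tumor 26044 had 8.24 FPKM, against 12.1 and 12.4 FPKM in 26048 and 26050. Both triple mutants were below both double mutants, but they differed from each other by 2.61-fold, while the double mutants were 1.03-fold apart. The means were 5.70 ± 3.598 FPKM in triple-mutant and 12.3 ± 0.2 FPKM in double mutants (SD, n = 2). The difference of -1.10 log2 units (standard error 0.48, 95% interval -2.37 to 0.17) had an adjusted p of 0.54 from limma. Tumor 26043 carried most of it, since the difference was -0.52 without that tumor and -1.68 without tumor 26044. Trp53 mRNA was likewise lowest in tumor 26043, with 15.7 FPKM there, 87.8 in tumor 26044, and 149.7 and 103.1 in the double mutants. Brca1 did not set tumor 26043 apart, with 3.26 FPKM there, 3.28 in tumor 26044, and 3.84 and 5.69 in the double mutants. Both genes were floxed in all 4 tumors, and the part of their deletion in these whole-gene values was not tested.

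Evi2a, Evi2b and Omg lie within the Nf1 locus on the opposite strand. Evi2a had 4.42 and 2.1 FPKM in triple mutants and 6.52 and 5.18 FPKM in double mutants, and Evi2b, a leukocyte membrane protein gene, had 0.78 and 0.36 against 1.31 and 1.19 FPKM. Both were lower in triple mutants like Nf1, yet their lowest tumor was 26044 and not 26043. Omg, a myelin glycoprotein gene, stayed at or under 0.10 FPKM. The libraries were strand-specific, but whether Cufflinks was told so is not given in the sources used here. The 28 tested genes within 1 Mb of Nf1 had a median difference of -0.22, 11 with both double mutants above both triple mutants and 3 the other way, against 22.9% and 21.3% of all genes tested. Their medians relative to the mean of the 4 tumors were -0.11 and -0.08 in tumors 26043 and 26044, against -1.13 and 0.03 for Nf1. Suz12, a subunit of Polycomb repressive complex, was at 16.8 and 17.8 against 26.2 and 32.9 FPKM, and Rhbdl3, a rhomboid-like gene, at 4.66 and 3.82 against 0.22 and 0.13 FPKM.

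On the PI3K side, Inpp4b had the lowest level, and its FPKM separated the genotypes. It lies on chromosome 8 from 81715200 to 82122561 (plus strand). The gene model used by the authors starts 373 kb downstream of the start in GENCODE M21, so upstream exons of longer transcripts were not part of its value. It also ends before the GENCODE end at 82127914, so sequence past its end was left out too. It was listed at 0.157 FPKM in 26043 and 0.059 in 26044, and at 0.552 in 26048 and 1.25 in 26050. Both triple mutants were below both double mutants, as were 16.2% of all 23746 rows without a filter. Their Cufflinks intervals did not overlap, with a highest bound of 0.311 FPKM in triple-mutant and a lowest bound of 0.446 FPKM in double mutants. The mean was 0.108 ± 0.069 FPKM in triple-mutant and 0.902 ± 0.494 FPKM in double mutants (SD, n = 2), an 8.36-fold ratio of double- to triple-mutant between low values. Only tumor 26050 exceeded 1 FPKM, so the gene was not tested with the others. In a limma fit of all rows without the filter, its difference of -0.76 log2 units (standard error 0.23) had an adjusted p of 0.65.

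The surroundings of Inpp4b were also lower in tumor 26044. The 6 tested genes within 1 Mb had a median of -0.75 relative to the mean of the 4 tumors there, and of 0.19, 0.20 and 0.13 in tumors 26043, 26048 and 26050. Over the 66 tested genes within 3 Mb the medians were -0.58 in tumor 26044, 0.10 in tumor 26043, 0.25 in tumor 26048 and 0.19 in tumor 26050. Inpp4b itself was at -0.31 in tumor 26043 and -0.44 in tumor 26044, on a scale where the added 1 compresses its low values. The part of the region in its level was not tested. Nearby, the zinc finger gene Zfp330 was at 18.4 and 11.7 against 26.2 and 43.1 FPKM, the chromatin remodeler gene Smarca5 at 20.7 and 12.7 against 26.9 and 32.2 FPKM, and the ubiquitin protease gene Usp38 at 7.95 and 3.76 against 8.86 and 9.03 FPKM. All 3 were lowest in tumor 26044, and in tumor 26043 they were also below both double mutants. Of the 6 tested genes within 1 Mb, 3 were lower and 1 was higher in both triple mutants. The shares over all genes tested were 22.9% and 21.3%. Inpp4a, the paralog of Inpp4b, was the more abundant one in every tumor, with 5.30 and 3.72 FPKM in triple-mutant and 8.12 and 6.33 FPKM in double mutants. Inpp4b made 2.88% and 1.56% of their sum in triple-mutant and 6.37% and 16.5% in double mutants.

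**Figure D3:**
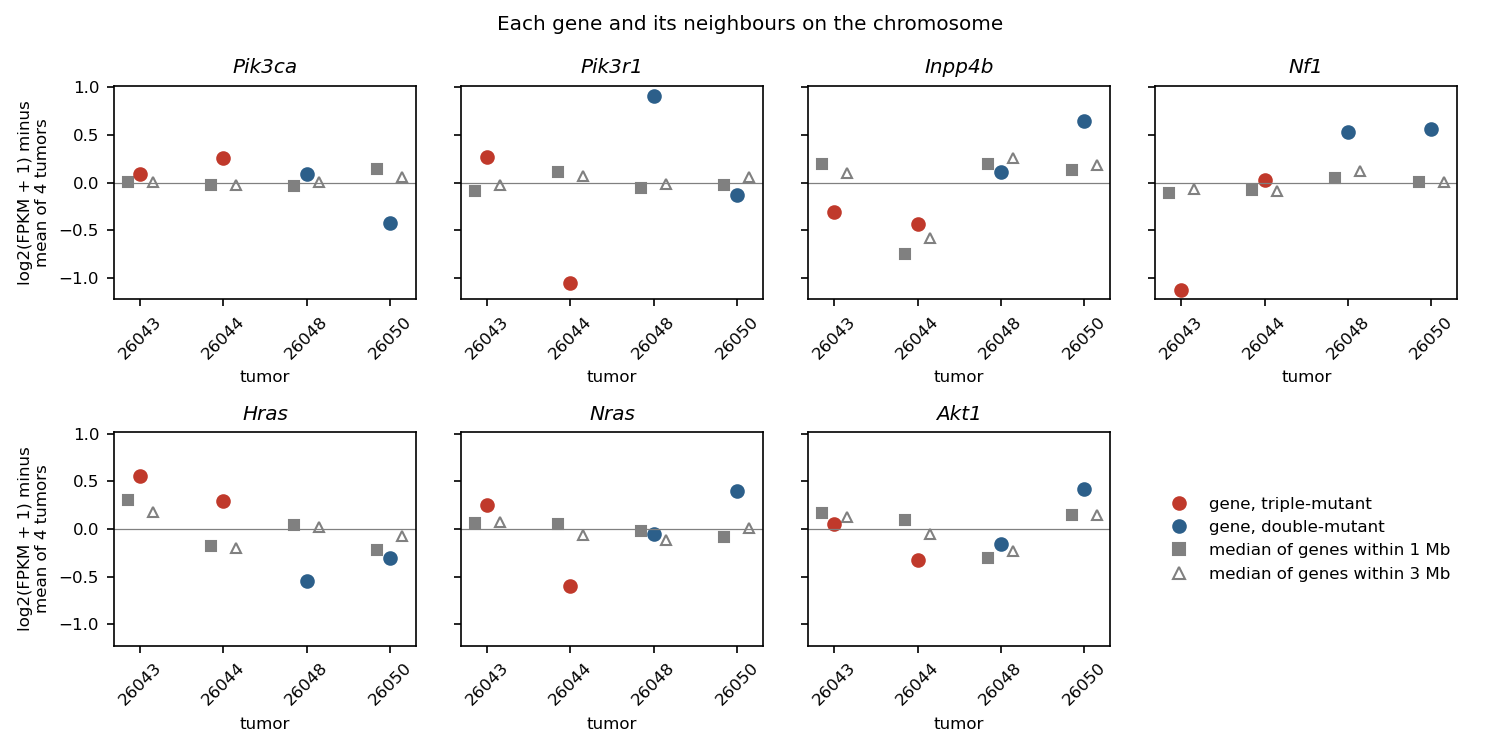
log2(FPKM + 1) minus the mean of the 4 tumors (vertical axis) for each gene (circles, red triple-mutant, blue double-mutant), and the median of the tested genes within 1 Mb (squares) and 3 Mb (triangles). The genes around Inpp4b are low in tumor 26044 (-0.75 within 1 Mb), whereas Nf1 is at -1.13 in tumor 26043 with its neighbors at -0.11.

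Pik3ca, the catalytic subunit, lies on chromosome 3 from 32436151 to 32468486 (plus strand), in a model that starts 38.5 kb downstream of the GENCODE M21 start. The triple mutants 26043 and 26044 stood at 7.74 and 8.87 FPKM, the double mutants 26048 and 26050 at 7.75 and 5.11 FPKM. The genotypes met at 7.74 and 7.75 FPKM and so overlapped. The difference was 0.35 log2 units (standard error 0.34, 95% interval -0.57 to 1.26, adjusted p = 0.75 from limma). Each of these FPKM lay below its own Cufflinks interval, at 60.7% to 77.9% of the midpoint, and the same was true of Nf1 (75.1% to 88.6%) and Nras (70.8% to 88.2%) in all 4 tumors. Of all genes tested 15.2% were below their interval in every tumor. On the midpoints, Pik3ca stood at 11.6 and 14.6 FPKM in triple-mutant and 9.94 and 6.83 FPKM in double mutants. The genotypes then no longer overlapped, as for 42.6% of all genes on this measure, and the difference was 0.60 log2 units (adjusted p = 0.63 from limma). Nf1 stayed below in triple-mutant and Nras overlapped on the midpoints as well. The 7 tested genes within 1 Mb of Pik3ca had a median difference of -0.06. They included Gnb4, a G protein subunit gene at 4.64 and 6.58 against 3.85 and 3.86 FPKM, Mfn1, a mitochondrial fusion gene at 16.2 and 12.4 against 17.4 and 20.6 FPKM, and Actl6a, a chromatin remodeler subunit gene whose genotypes overlapped.

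Pik3r1, the regulatory subunit, lies on chromosome 13 from 101680762 to 101768217 (minus strand). It had 21.4 FPKM in 26043, 7.92 in 26044, 34.0 in 26048 and 16 in 26050. Tumor 26043 lay above tumor 26050, so the genotypes overlapped, and the tumors within a genotype differed by 2.71-fold and 2.12-fold. The difference was -0.79 log2 units (standard error 0.62, 95% interval -2.43 to 0.86, adjusted p = 0.69 from limma), and leaving out 1 tumor moved it between -1.45 (without 26043) and -0.12 (without 26044). Pik3r1 was highest in the tumor with the most adipocyte and fibroblast marker RNA (26048) and lowest in the tumor with the least epithelial marker RNA (26044), and the part of these cells in its level was not tested. The 7 tested genes within 1 Mb had a median difference of 0.09, with Cd180 (1.58 and 0.86 against 3.42 and 2.19 FPKM), a receptor gene of B cells and macrophages, as the largest. The cell cycle genes Cdk7 and Ccnb1 in this window had 6.52 and 8.46 against 5.47 and 5.88 FPKM and 38.4 and 52.7 against 41.6 and 74.4 FPKM.

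The ratio of Pik3r1 to Pik3ca FPKM was 2.77 in tumor 26043, 0.89 in tumor 26044, 4.39 in tumor 26048 and 3.13 in tumor 26050. On interval midpoints, under which Pik3ca is higher, the ratios were 1.86, 0.54, 3.44 and 2.35. The regulatory transcript thus exceeded the catalytic one in every tumor but 26044, and both triple-mutant ratios were below both double-mutant ratios. On the log2 scale the ratio was 0.65 ± 1.16 in triple-mutant and 1.89 ± 0.35 in double mutants (SD, n = 2), a difference of -1.24 with p = 0.333 in a two-sided exact permutation test, the smallest possible. Without tumor 26044 the difference was -0.42, so that tumor carried most of it. Among the catalytic subunits, Pik3ca made 30.1% of the summed FPKM in tumor 26043, 30.9% in tumor 26048 and 24.0% in tumor 26050, but 53.8% in tumor 26044. In that tumor Pik3cb, encoding p110-beta, was at 3.04 FPKM, against 9.92 to 13.3 FPKM in the others. Pik3cd and Pik3cg, the catalytic subunits most used by leukocytes, ranged from 3.41 to 5.49 and from 0.68 to 1.34 FPKM. Of the regulatory subunits, Pik3r2 made 59.4% and 75.6% in triple-mutant and 34.0% and 47.9% in double mutants, while Pik3r3 made 8.62% and 7.42% against 26.85% and 20.15%.

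Akt1, the kinase downstream of PI3K, lies on chromosome 12 from 112653821 to 112674276 (minus strand). It stood at 105.4 and 81.1 FPKM in triple mutants 26043 and 26044 and at 90.8 and 136.7 FPKM in double mutants 26048 and 26050. The genotypes overlapped, and the difference of -0.27 log2 units (standard error 0.34, 95% interval -1.16 to 0.63, adjusted p = 0.81 from limma) turned to 0.025 without tumor 26050. Its paralog Akt2 was at 58.8 and 54.8 against 53.7 and 44.5 FPKM. Within 1 Mb of Akt1, 29 tested genes had a median difference of 0.17, and 9 were higher in both triple mutants and 1 in both double mutants, against 21.3% and 22.9% of all genes tested. The Notch ligand gene Jag2 (27.7 and 45.7 against 1.23 and 3.17 FPKM), the membrane protein gene Tmem121 (8.94 and 14.8 against 3.04 and 4.59 FPKM) and the kinesin gene Kif26a (3.34 and 3.29 against 0.67 and 0.74 FPKM) had the largest differences there, in the direction opposite to the mean of Akt1.

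**Figure D4:**
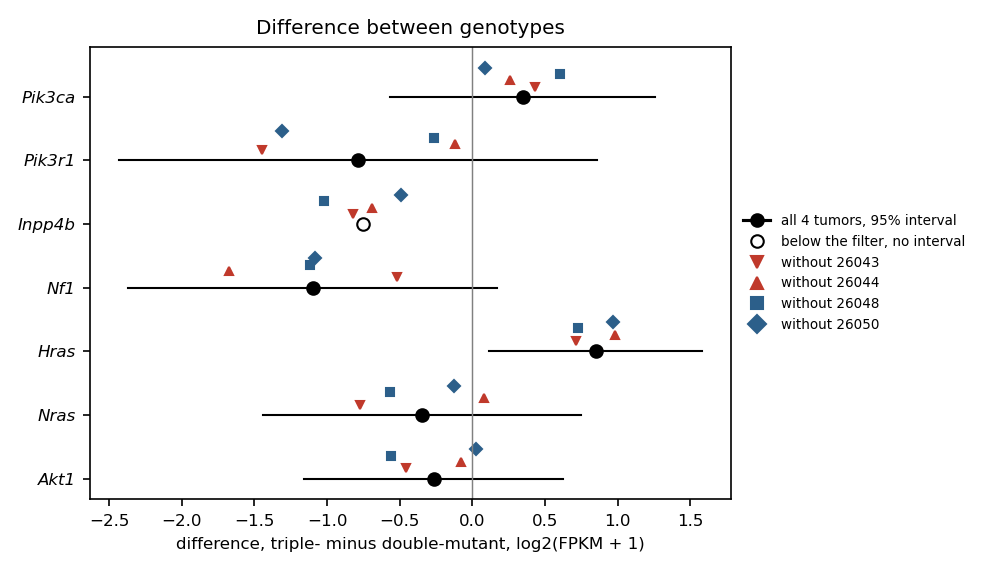
Difference between genotypes (triple- minus double-mutant, log2(FPKM + 1), horizontal axis) of each gene. Black circles are the value from all 4 tumors with its 95% limma interval, the open circle is Inpp4b, which was below the filter, and colored marks give the value without 1 tumor. The interval of Hras (0.12 to 1.58) leaves out 0 before adjustment, and Nras and Akt1 cross 0 when tumor 26044 or 26050 is left out.

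Each gene was also set against all others by the Euclidean distance between log2(FPKM + 1) profiles centered over the 4 tumors. Nearest to Hras were Bri3 (distance 0.05), Txndc16 and Fam158a, with 285.5, 227, 132 and 153 FPKM for Bri3 in tumors 26043, 26044, 26048 and 26050. Nf1 had few close profiles, only 23 genes within a distance of 0.5, led by Arxes2 (0.22), F13a1 and the actin-bundling gene Fscn1. For Pik3r1 there were 87 within that distance, led by Ube2f (0.20), Fry and Chpt1. The number within that distance was 485 for Hras, 1036 for Inpp4b, whose low values the added 1 compresses on this scale, 1234 for Nras, 1798 for Pik3ca and 1910 for Akt1. Their nearest genes were Tsn, Nop58 and Mmgt1 for Inpp4b, Tmem41b, Pdcd10 and Cyb561d1 for Nras, Ptpn23, Cbfa2t2 and Tab1 for Pik3ca, and Rsc1a1, Fam203a and Gnai3 for Akt1. With 4 tumors these distances describe the libraries only.

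The other genes of both pathways were read from 10 lists holding 141 genes, of which 127 were tested. None passed an adjusted p of 0.05 in limma. At an unadjusted p under 0.05 there were 15 (11.8%, against 9.82% of all genes tested), 9 higher in triple-mutant and 6 in double mutants. Both triple mutants were above both double mutants for 26 genes (20.5%) and below for 26 (20.5%), close to the 21.3% and 22.9% of all genes. The median difference was -0.07, and -0.02 over all genes tested.

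The lists of class II and III PI3K, phosphatases, GTPase-activating proteins and RAS lipid modification had medians below 0, that is, toward double mutants, also with any 1 tumor left out. Those of the other class I PI3K subunits and the other RAS GTPases were below 0 too, but without tumor 26044 they were 0.048 and 0.017. The median of all genes tested also moved without that tumor, from -0.02 to 0.060. Without tumor 26043 it was -0.12, with the GTPase-activating proteins at -0.17 and RAS lipid modification at -0.04. The list called other class I PI3K subunits (8 tested) also holds the adaptor Pik3ap1 and the PI3K-interacting protein Pik3ip1, which are not subunits. Its median was -0.45, with 2 genes higher in both double-mutant and 1 in both triple mutants. The shares over all genes tested were 22.9% and 21.3%. Pik3r3 was at 5.78 and 3.47 against 23.3 and 10.1 FPKM (-1.58 log2 units, unadjusted p = 0.031 from limma), and Pik3r5, a regulatory subunit of leukocytes, at 0.83 and 0.52 against 2.04 and 1.96 FPKM (-0.85, unadjusted p = 0.041). Pik3ap1, an adaptor of B cells, overlapped, with 15.5 and 1.18 against 6.81 and 13.3 FPKM. Leukocyte markers were also lower in both triple mutants, and their part in Pik3r5 was not tested. Class II and III PI3K (4 tested) had a median of -0.26, with Pik3c2a at 6.03 and 5.92 against 8.12 and 8.69 FPKM, Pik3c3 at 10.2 and 10.3 against 11.5 and 10.5 FPKM, and Pik3c2b overlapping. Of 15 other phosphoinositide and Akt phosphatases, 7 were higher in both double-mutant and 3 in both triple mutants, against 22.9% and 21.3% of all genes tested. Their median was -0.18. Inppl1, which encodes the lipid phosphatase SHIP2, had 34.6 and 27.2 against 52.96 and 78.2 FPKM (-1.04, unadjusted p = 0.028 from limma), and Inpp5b had 11.5 and 11.1 against 27.0 and 13.7 FPKM. Ppp2r2b, a regulatory subunit of protein phosphatase 2A, had 2.70 and 1.33 against 0.18 and 0.53 FPKM (1.12, unadjusted p = 0.036).

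Among the other RAS GTPase-activating proteins and Spreds (12 tested, median -0.25), 4 were higher in both double mutants and 1 in both triple mutants. The shares over all genes tested were 22.9% and 21.3%. Nf1 had a larger difference than all but 3 of the 12. Rasa3 was at 7.96 and 31.5 against 4.84 and 4.14 FPKM, the opposite direction. Iqgap1, a scaffold with a GAP-like domain, was at 51.9 and 25.4 against 93.5 and 92.2 FPKM (-1.33, unadjusted p = 0.027 from limma). Rasal1 was at 0.43 FPKM in tumor 26044 and 9.14 to 13.3 FPKM in the others. Of 15 other RAS-family GTPases (median -0.10), Rap2c was at 14.8 and 11.6 against 38.7 and 34.2 FPKM (-1.41, unadjusted p = 0.0060, adjusted p = 0.34 from limma). Mras was higher in triple mutants, with 4.19 and 4.54 against 2.05 and 1.63 FPKM (0.92, unadjusted p = 0.034), and Rasd2 stood at 25.8 FPKM in tumor 26050 and 0.79 to 1.91 FPKM in the others.

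The list of RAS effectors lay toward triple mutants. Of 16 RAS effectors and ERK cascade genes (median 0.35), 5 were higher in both triple-mutant and 2 in both double mutants. The shares over all genes tested were 21.3% and 22.9%. Map2k2, the ERK kinase MEK2, had 91.4 and 89.6 against 59.8 and 47.6 FPKM (0.75, unadjusted p = 0.043 from limma), Rin1, a RAS-binding exchange factor, had 6.20 and 19.1 against 3.73 and 2.37 FPKM (1.59, unadjusted p = 0.049), and Rassf5, a RAS-binding scaffold, had 5.49 and 6.58 against 4.31 and 2.09 FPKM. The kinases Map2k1 and Mapk3 overlapped between genotypes. Exchange factors and adaptors (12 tested) had a median of 0.06, with the adaptors Irs2 (13.0 and 23.2 against 7.16 and 5.16 FPKM, unadjusted p = 0.023 from limma) and Shc1 (39.9 and 80.0 against 38.5 and 26.9 FPKM) and the exchange factor Rasgrp2 (1.55 and 2.61 against 0.74 and 0.53 FPKM) furthest apart. Enzymes of RAS lipid modification and turnover (13 tested) had a median of -0.16. Abhd17a, a RAS depalmitoylase listed as Fam108a, was at 154.7 and 237 against 101.4 and 71.5 FPKM (1.16, unadjusted p = 0.027), Icmt, the carboxyl methyltransferase of RAS, at 21.5 and 16.7 against 13.4 and 12.7 FPKM, and Abhd17c (Fam108c) was at 18.2 FPKM in tumor 26044 and 54.2 to 57.5 FPKM in the others. Akt paralogs, upstream kinases and mTOR complexes (19 tested) had a median of 0.01, with Sgk3 at 2.01 and 1.32 against 2.56 and 5.32 FPKM and Prr5, a subunit of mTOR complex, overlapping.

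FoxO transcription factors are phosphorylated by Akt and kept out of the nucleus by it, and their list had the highest median of the 10. Of 15 tested genes 7 were higher in both triple mutants and 1, the receptor gene Erbb3, in both double mutants. The shares over all genes tested were 21.3% and 22.9%. The median difference of the list was 0.56. Foxo1 was at 20 and 16.2 FPKM in triple-mutant and 6.98 and 6.85 FPKM in double mutants (1.26 log2 units, standard error 0.30, unadjusted p = 0.010, adjusted p = 0.40 from limma). Cdkn1b, which encodes the cell cycle inhibitor p27, was at 39.1 and 38.5 against 11.1 and 18.9 FPKM (1.36, standard error 0.35, adjusted p = 0.44). These 2 genes, named after their values were seen, differed little between the triple mutants. Sesn1, a stress-induced inhibitor of mTORC1, and Foxo3 had the largest differences of the list (2.96 and 1.77), yet the triple mutants were far apart, and in tumor 26044 Sesn1 was at 180.3 and Foxo3 at 97.2 FPKM, against 12.0 and 18.8 FPKM in tumor 26043. Sesn1 and Foxo3 are neighbors on chromosome 10, with 277 kb between them. Without 1 tumor the median of the list lay between 0.32 and 0.999, and without tumor 26044 it was 0.62.

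**Figure D5:**
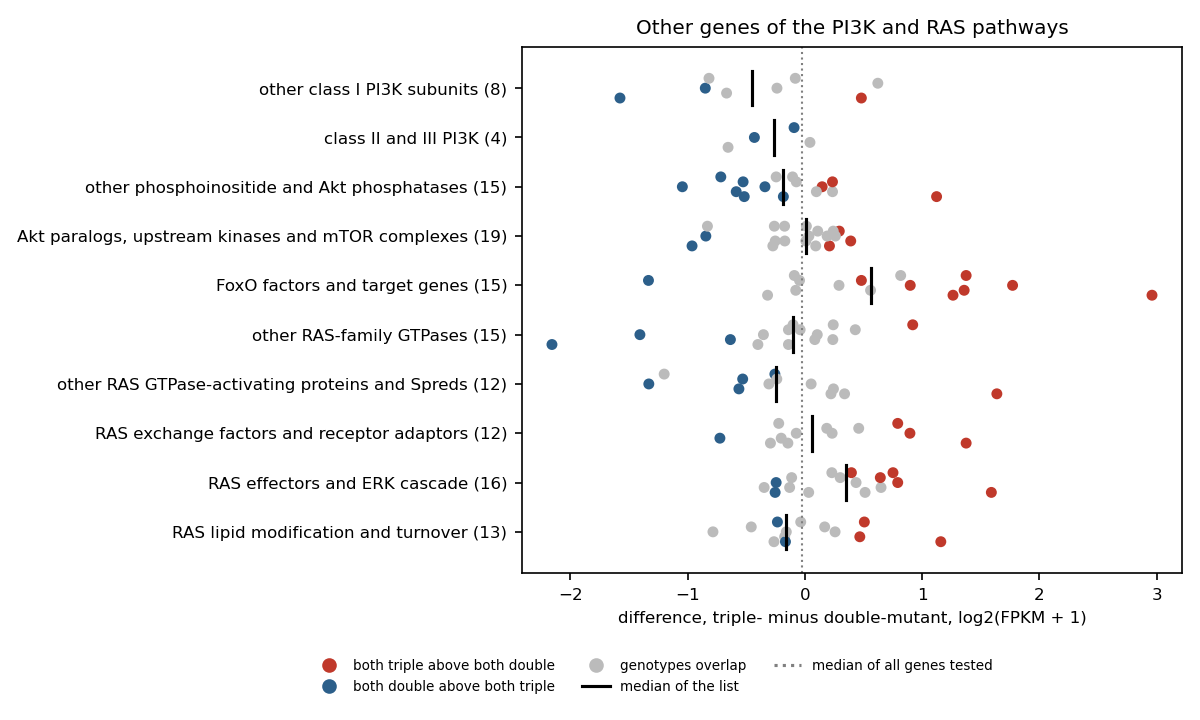
Difference between genotypes (triple- minus double-mutant, log2(FPKM + 1), horizontal axis) of each tested gene in 10 lists of the PI3K and RAS pathways, with the number tested in brackets. Red and blue points are genes whose genotypes do not overlap, black bars the list medians and the dotted line the median of all genes (-0.02). The FoxO list has the rightmost median (0.56) and the other class I PI3K subunits the leftmost (-0.45, and 0.048 without tumor 26044).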

How the data were processed

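PolyA RNA of 4 tumors was measured, 2 per genotype as the sample titles give it. The authors sequenced strand-specific 50-base single-end reads, aligned them to mm10 (per the labels) with TopHat 2.0.10 and Bowtie 0.12.9 and deposited Cufflinks 2.1.1 FPKM per gene, with the bounds of its interval in FPKM. The read counts the authors tested with DESeq2 were not used here. Positions are 1-based mm10. The 4 tables were joined on symbol and position, all status values kept. Genes reaching 1 FPKM in 2 tumors or more (12752) were kept, and their log2(FPKM + 1) entered limma 3.58.1 under R 4.3.3 (eBayes with a trend), with Benjamini-Hochberg adjustment over all of them, and the fit was tested on simulated data. FPKM below any whole-read step occur in every tumor, so reads could not be recovered and depth is unknown. The median half-width of the Cufflinks interval was 8.36% to 9.05% of its midpoint, which covers measurement error only. P-values measure the spread between these tumors, and whether littermates are paired is not given. Lists with older symbols were matched through RefSeq synonyms and position.

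The 7 genes and all lists were chosen with earlier results of these data known, so lists get counts and medians and no set test. Named genes are the 7, the targeted genes, the 3 largest differences per list and among neighbors within 1 Mb, genes at the 7 loci and the 3 nearest profiles, without predicted or small RNA genes. Neighbors were taken by locus midpoint. Some genes of these pathways are not reported here. Promoter windows are RefSeq's on GRCm38.p6, and Python 3.11.15, scipy 1.17.1 and matplotlib 3.10.9 were used. The settings changed were the pseudocount (0.1), the filter (none, or 5 FPKM), rescaling to TPM, quantile normalization, no trend, status OK only, interval midpoints, a window of 3 Mb and each tumor left out. Midpoints for counts of genes and list medians without 1 tumor were added after seeing the data.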

Additional observations from a re-analysis of the deposited data

How the results depend on the processing

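No paired analysis was possible because the tumors carry their own numbers, which the genotypes do not share. In limma, 0 of the genes tested among the 7 passed an adjusted p of 0.05 under any of the 12 alternatives, with Inpp4b tested only without a filter. Of all genes, 0 passed (smallest adjusted p 0.064, 1252 at an unadjusted p under 0.05), with 6 passing after quantile normalization, 5 without the trend and 1 on interval midpoints, and 0 with any tumor left out; the cause was not tested. Direction held for Hras (0.71 to 0.98), Nf1 (-1.68 to -0.52), Pik3ca (0.09 to 0.60), Pik3r1 (-1.45 to -0.12) and Inpp4b, which moved to -2.22 with a pseudocount of 0.1. Nras ran from -0.78 to 0.083 and Akt1 from -0.56 to 0.025 with a tumor left out, reversed without tumor 26044 and 26050 respectively. Adjusted p ranged from 0.37 to 0.99 for Hras and from 0.36 to 0.99 for Nf1. The Hras share and the ratio of Pik3r1 to Pik3ca kept their side in 5 alternatives each, and with a window of 3 Mb the median around Pik3r1 went from 0.09 to -0.03, with no change of sign around the other 6 genes. Inpp4b has no value under quantile normalization or a filter of 5 FPKM. With a tumor left out the list medians ran from 0.32 to 0.999 for FoxO, from -0.64 to 0.048 for the other class I PI3K subunits and from -0.30 to 0.017 for the other RAS GTPases (both above 0 only without 26044), from -0.11 to 0.23 for Akt paralogs and mTOR complexes and from -0.17 to 0.38 for exchange factors and adaptors (both below 0 without 26043 or 26050), and the other 5 kept their sign. The median of all genes tested moved as well, from -0.12 without tumor 26043 to 0.060 without tumor 26044. FPKM give no read number, so Inpp4b, under 1 FPKM in 3 tumors, is the least certain value.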
